A study of Caenorhabditis elegans with 2 samples.

Results

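Small RNAs antisense to 7 genes of the nematode Caenorhabditis elegans, unc-44, tln-1, Y110A2AL.1, B0001.5, Y54G2A.40, ckk-1 and F56H1.3, are described here. They are 7 of the 45510 genes in the counts, and were chosen by name, because earlier results of the same data had shown a large excess of antisense reads for them in 1 of 2 libraries. That excess is therefore a description, and it carries no test. The genes lie on chromosomes I, II, III and IV, and all 7 were among the 5751 genes with 10 or more antisense reads over both libraries, which are called measured genes here.

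The libraries held small RNAs that came down with NRDE-3 from embryo lysates on anti-FLAG beads. The RNAi library came from embryos of the genotype eri-1(mg366);dpy-13(e458), taken from cultures grown on dpy-13 RNAi food, bacteria that make double-stranded RNA of this cuticle collagen gene, and serves as a control in the study's design text. The other library, called wild type, was from N2 cultures on OP50. Both strains carried the 3xflag::gfp::nrde-3 tag and grew at 20 °C, and each group held 1 library, so no replicate spread, test or p-value could be given. Genotype, food and the preparation of a library cannot be told apart.

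NRDE-3 is an Argonaute protein that binds secondary small RNAs and carries them into the nuclei of somatic cells, where transcription of matching genes is silenced. These small RNAs are made by RNA-dependent RNA polymerases that copy a target transcript, so they are antisense to the gene they came from. ERI-1 is an exonuclease, and animals without it respond more strongly to double-stranded RNA and lack a class of endogenous small RNAs. Reads in the sense direction have the sequence of the transcript itself.

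The RNAi library held 5537671 counted reads and the wild-type library 7693320, sense and antisense together. Outside structural RNA (microRNA and the ribosomal, transfer, small nuclear and nucleolar classes), antisense reads made up 7.69% of the RNAi library and 17.3% of the wild-type library. Levels are given in RPM, reads per 1000000 counted reads, so that 3 reads, the limit that a count of 0 allows, stood for 0.542 RPM in the RNAi library and 0.390 RPM in the wild-type library. A ratio is the level in the RNAi library over that in wild type, with an exact 95% interval that covers counting error only. With 0.5 added to each count, the measured gene at the median had an antisense ratio of 11.9 (log2 3.58, quartiles 2.73 and 4.49), so each gene is set against that value. In lysates of whole embryos, fewer cells of a type and less RNA per cell cannot be told apart.

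All 7 genes had far more antisense reads in the RNAi library than in wild type. Summed over the genes there were 3646 antisense reads in the RNAi library and 62 in wild type, a ratio of 81.7 (63.6 to 107). They made up 0.856% (Wilson 95% interval 0.829 to 0.884) of the antisense reads outside structural RNA in the RNAi library, and 0.00466% (0.00363 to 0.00597) in wild type. The median of the 7 log2 ratios was 6.71, a 105-fold ratio, which was 3.13 above the median of measured genes on the log2 scale. That median depended on the scaling, at 3.14 with TMM and 3.07 with median-of-ratios size factors, which bring the median measured gene close to no change, and 4.93 with microRNA sense reads. Each scaling shifts all genes alike, so the excess over measured genes was 3.13 under each of them by construction. With no minimum of antisense reads it was 6.24, but the median over all genes was then 0.474. That is the log2 value of a gene with no antisense read in either library. With the 2 wild-type counts of 0 set at 3 reads the median of the 7 genes was 6.30, and that of all measured genes 3.47.

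A gene met the size rule where its level was 10 RPM or more in the higher library, its ratio was 4 or more, and the interval lay wholly beyond 2-fold. All 7 genes met it, higher in the RNAi library, and so did 1069 measured genes, 18.6%, while 151 measured genes met it lower in the RNAi library. Since the genes were picked for this contrast, nothing is read from that difference. With TMM and median-of-ratios size factors, 6 of the 7 met it, because the ratio of Y110A2AL.1 fell below 4.

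**Figure D1:**
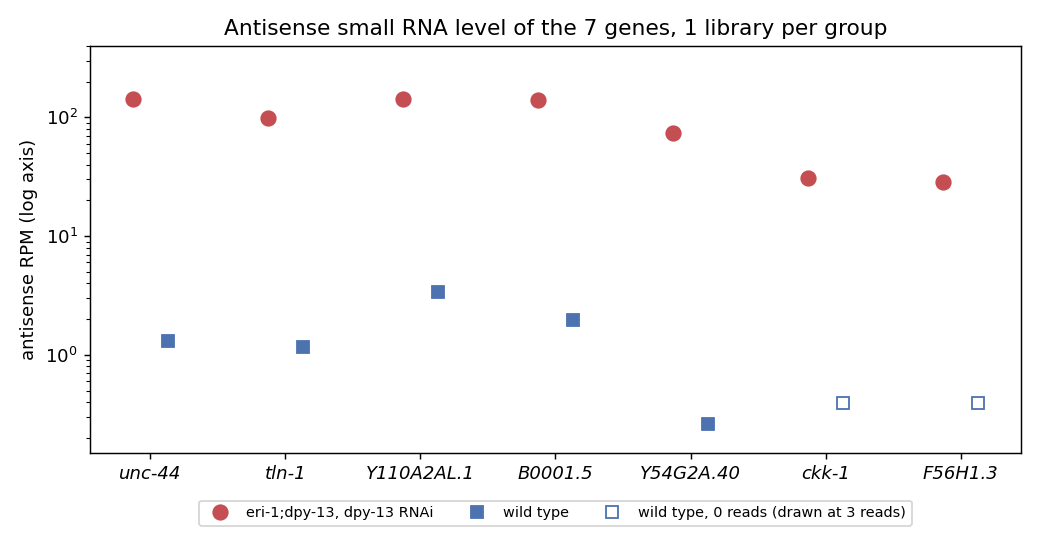
Antisense level of each of the 7 genes in RPM (log axis), with the RNAi library as red circles to the left of wild type as blue squares and 1 library per group. Levels in the RNAi library lay between 28.5 and 143 RPM, against at most 3.38 RPM in wild type, and the open squares of ckk-1 and F56H1.3 stand at 3 reads because no antisense read was counted there.

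The first of the 3 genes with a known product, unc-44, encodes an ankyrin, a scaffold that ties membrane proteins of axons to the spectrin cytoskeleton, and lies on chromosome IV from 5975557 to 6004857 on the forward strand (WBcel235, Ensembl release 115). There were 792 antisense reads (143 RPM) in the RNAi library and 10 (1.3 RPM) in wild type, a ratio of 110 (59.5 to 230). That was 8.78 times the ratio of the median measured gene, and 61 measured genes had a higher log2 ratio.

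The talin gene tln-1, whose product links integrins to actin, lies on chromosome I from 1721590 to 1740692 on the forward strand. It had 552 antisense reads (99.7 RPM) in the RNAi library and 9 (1.17 RPM) in wild type, a ratio of 85.2 (44.6 to 187). Its ratio was 6.76 times that of the median measured gene.

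The gene ckk-1 encodes a calcium/calmodulin-dependent protein kinase kinase, which activates the CaM kinase CMK-1, and lies on chromosome III from 5635479 to 5654564 on the forward strand. It had 170 antisense reads (30.7 RPM) in the RNAi library and 0 in wild type. With the wild-type count set at 3 reads, its ratio was 78.7, and the exact interval began at 63.3.

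The 4 other genes carry sequence names only, and no role is given to them here. Y110A2AL.1, a gene of 0.584 kb of exon on chromosome II from 2875101 to 2876768 on the forward strand, had 793 antisense reads (143 RPM) in the RNAi library and 26 (3.38 RPM) in wild type. Its ratio of 42.4 (28.7 to 65.3) was the lowest of the 5 ratios that could be computed, and its interval overlapped those of B0001.5, tln-1 and unc-44 but not that of Y54G2A.40. B0001.5, on chromosome IV from 12141165 to 12143331 on the reverse strand, had 771 antisense reads (139 RPM) in the RNAi library and 15 (1.95 RPM) in wild type, a ratio of 71.4 (43 to 128). 

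Y54G2A.40, on chromosome IV from 2846476 to 2851282 on the forward strand, had 410 antisense reads (74.0 RPM) in the RNAi library and 2 (0.260 RPM) in wild type. Its ratio of 285 had an interval of 78.3 to 2360, set by the 2 wild-type reads. F56H1.3, on chromosome I from 5729793 to 5735253 on the reverse strand, is listed as protein-coding in the deposited counts and as a pseudogene in Ensembl release 115. It had 158 antisense reads (28.5 RPM) in the RNAi library and 0 in wild type. Its ratio was 73.2 with the wild-type count set at 3 reads, and the exact interval began at 58.8.

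**Figure D2:**
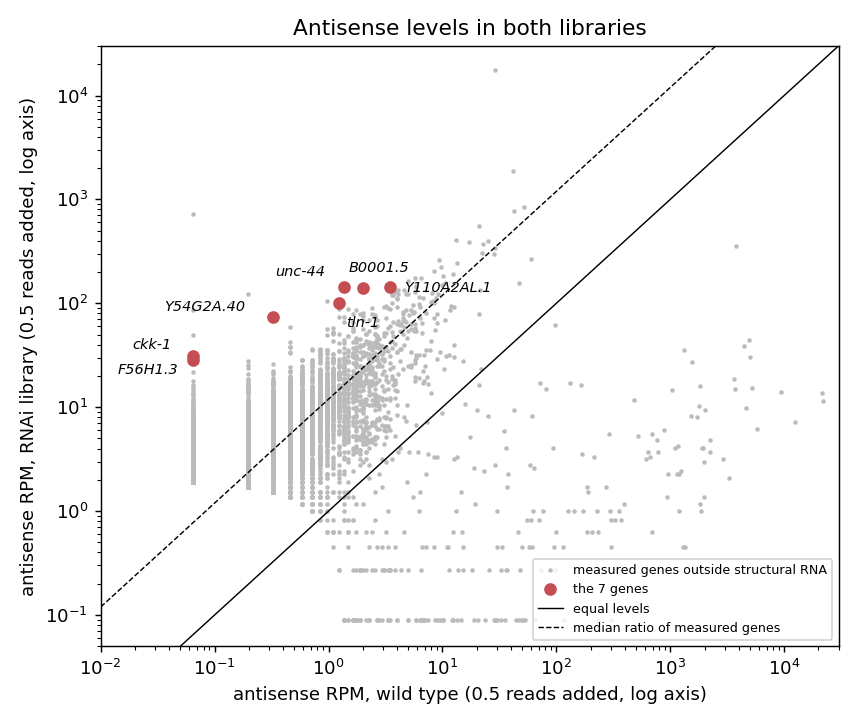
Antisense level of measured genes outside structural RNA in the RNAi library (vertical, log axis) against wild type (horizontal, log axis), in RPM with 0.5 reads added, with the 7 genes in red, a solid line at equal levels and a dashed line at the median ratio of 11.9. All 7 genes lie above the dashed line, and ckk-1 and F56H1.3 lie at the left edge of the points, where wild type had 0 reads.

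Per kilobase of exon the order of the genes was different, because the exon length ran between 0.584 kb for Y110A2AL.1 and 22.9 kb for unc-44. In RPM per kilobase of exon, the antisense level of Y110A2AL.1 was 245 in the RNAi library and 5.79 in wild type. B0001.5 followed with 75.1 and 1.05, and Y54G2A.40 with 38.0 and 0.134, in the RNAi library and in wild type. The 3 smallest genes by exon length thus held the 3 highest levels per kilobase in the RNAi library.

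Lower in that order, ckk-1 had 14.4 RPM per kilobase in the RNAi library (exact 95% Poisson interval 12.3 to 16.7) and 0 in wild type. The level of tln-1 was 11.5 (10.5 to 12.5) in the RNAi library and 0.135 in wild type, and its interval overlapped that of ckk-1. F56H1.3 had 7.98 (6.78 to 9.32) in the RNAi library and 0 in wild type, and unc-44 had 6.23 (5.81 to 6.68) in the RNAi library and 0.0566 in wild type. The median measured protein-coding gene stood at 2.26 RPM per kilobase in the RNAi library and 0.171 in wild type, so that all 7 genes were above it in the RNAi library, and 5 were below it in wild type. 

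Sense reads, from the same libraries, showed a much smaller difference. Summed over the 7 genes, 2587 sense reads were counted in the RNAi library and 965 in wild type, a ratio of 3.72 (3.46 to 4.01). The sense ratio of the median protein-coding gene with 10 or more sense reads was 2.74 (quartiles 1.90 and 4.17, 6837 genes), so the summed ratio lay inside the quartiles. The direction of the sense ratio was not the same under every scaling: it was 0.314 with TMM and 0.298 with median-of-ratios size factors, which both rest on antisense reads. A scaling shifts the sense ratios of all genes alike, so that of the median protein-coding gene is lowered by the same factor.

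Nearly all sense reads belonged to unc-44 and tln-1. The gene unc-44 had 1598 sense reads (289 RPM) in the RNAi library and 580 (75.4 RPM) in wild type, a ratio of 3.83 (3.48 to 4.22). The gene tln-1 had 950 in the RNAi library and 370 in wild type, a ratio of 3.57 (3.16 to 4.03). B0001.5 had 30 in the RNAi library and 12 in wild type, a ratio of 3.47 (1.73 to 7.45). For these 3 genes the log2 sense ratio was below 0 under the scalings on antisense reads.

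The 4 others had almost no sense reads. There were 4 sense reads in the RNAi library and 3 in wild type for ckk-1, and 3 and 0 for Y54G2A.40. Y110A2AL.1 had 2 in the RNAi library and 0 in wild type, and F56H1.3 had 0 in each. These counts give no usable ratio, and the interval for ckk-1, 0.313 to 12.6, reached both sides of 1.

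**Figure D3:**
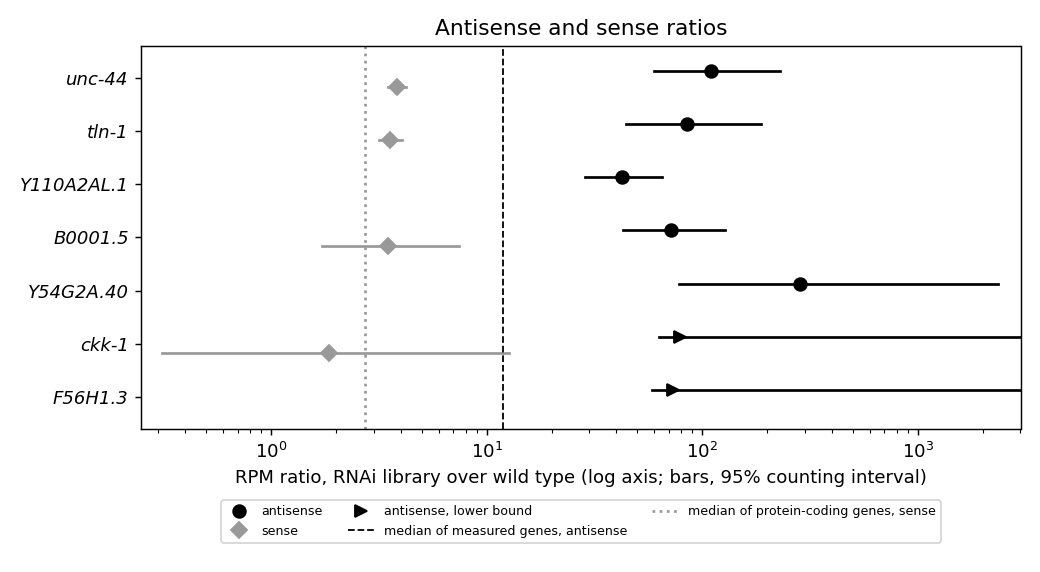
Ratio of the level in the RNAi library over wild type (log axis) for antisense reads (black) and sense reads (grey), with bars for the 95% counting interval. Where wild type had 0 reads, triangles stand at the ratio with that count set at 3 reads, and the interval begins to their left. The antisense ratios lie right of the dashed line, the median of measured genes at 11.9, while the sense ratios of unc-44, tln-1 and B0001.5 lie near the dotted line, the median of protein-coding genes at 2.74.

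The share of reads that were antisense split the genes into 2 kinds in the RNAi library. For unc-44 antisense reads were 33.1% of all reads in the RNAi library (31.3 to 35.1) and 1.69% in wild type (0.923 to 3.09). For tln-1 they were 36.8% (34.3 to 39.2) in the RNAi library and 2.37% (1.25 to 4.45) in wild type. Both were thus below the median protein-coding measured gene, which stood at 51.1% in the RNAi library and 11.1% in wild type.

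For the others nearly every read was antisense in the RNAi library. B0001.5 reached 96.3% (94.7 to 97.4) in the RNAi library and 55.6% (37.3 to 72.4) in wild type. The shares in the RNAi library were 97.7% (94.2 to 99.1) for ckk-1, 99.3% (97.9 to 99.8) for Y54G2A.40 and 99.7% (99.1 to 99.9) for Y110A2AL.1. All 158 reads of F56H1.3 in the RNAi library were antisense (97.6 to 100), and it had 0 reads in wild type. In wild type all 26 reads of Y110A2AL.1 and both reads of Y54G2A.40 were antisense, but 0 of 3 reads of ckk-1 were (0 to 56.1).

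Transcript isoforms of unc-44 did not share its antisense reads evenly. Of the 16 transcripts counted, the 2 entries of isoform f held 402 and 373 of 792 antisense reads in the RNAi library, together 97.9% (96.6 to 98.7), and 8 of 10 in wild type, 80% (49.0 to 94.3). Of the sense reads, isoform f held 66.9% (64.6 to 69.2) in the RNAi library and 59.1% (55.1 to 63.1) in wild type. The antisense share of isoform f was higher than its sense share in the RNAi library, and the 2 intervals did not overlap. Its antisense ratio was 135 (68.0 to 313), against 11.8 (2.80 to 105) for the other 14 transcripts together. These 14 had 17 antisense reads in the RNAi library and 2 in wild type, and the intervals of the 2 ratios overlapped. 

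Isoform f is the long form of the ankyrin. In Ensembl release 115 it has 21716 bases in 19 exons, the longest of 14975 bases, and 70.2% of the exon bases of unc-44 belong to it alone. A share of 24.5% is common to isoform f and others, and 5.36% belongs to others only. The release holds 9 transcripts of the gene where the counts hold 16, so the isoforms that were counted may differ in structure from those described.

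In tln-1 the antisense reads were spread over the isoforms. Isoforms a, c and d held 195, 158 and 163 of 552 antisense reads in the RNAi library, and isoform b held 36, a share of 6.52% (4.75 to 8.90). Of the sense reads, isoform b held 19.4% (17 to 22.0) in the RNAi library and 19.2% (15.5 to 23.5) in wild type, so its antisense share in the RNAi library was lower than its sense shares. Wild type had 3, 4, 0 and 2 antisense reads for isoforms a, b, c and d. The ratio was 90.3 (30.4 to 442) for a, 12.5 (4.48 to 48.4) for b and 113 (30.8 to 943) for d. For c it was 73.2 with the wild-type count set at 3 reads, and the exact interval began at 58.8. Reads that match several isoforms equally well go to 1 of them. In Ensembl release 115, 54.8% of the exon bases of tln-1 are in all 4 counted isoforms, and no base is in a, c and d without b. The release also holds isoforms e, f and g, which were left out of these shares.

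The 2 isoforms of ckk-1 held 61 and 109 antisense reads in the RNAi library, 35.9% (29.1 to 43.3) for a and 64.1% (56.7 to 70.9) for b. They share 73.2% of their exon bases, while 10.3% belong to a and 16.5% to b. The remaining 4 genes each had 1 transcript in the counts.

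**Figure D4:**
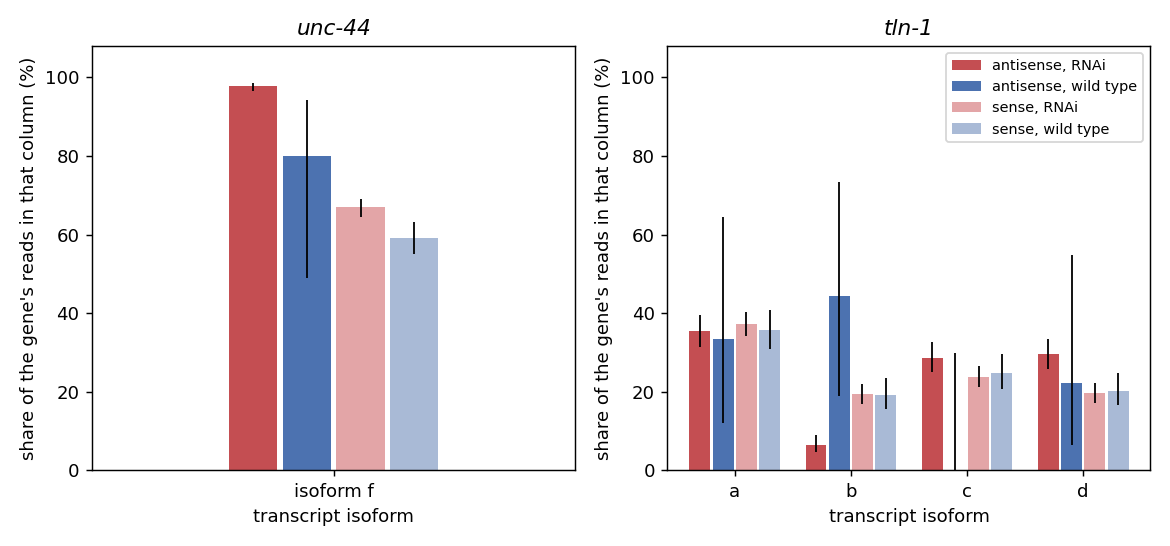
Share of the reads of unc-44 on isoform f and of tln-1 on isoforms a to d, in percent of the gene's reads of the same direction and library, with bars for the 95% Wilson interval and the RNAi library left of wild type in each pair. Isoform f of unc-44 held 97.9% of antisense and 66.9% of sense reads in the RNAi library, and isoform b of tln-1 held 6.52% of antisense and 19.4% of sense reads.

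The genes around the 7 were looked at for reads of their own. The 2 nearest protein-coding genes on each side gave 28 genes, of which 9 were measured, 2 met the size rule, higher in the RNAi library, and 8 had no antisense read in either library. That is close to the 18.6% of all measured genes, and neither of the 2 met it with TMM or median-of-ratios size factors. Those 2 stood beside Y110A2AL.1 and B0001.5. Y110A2AL.10, on the opposite strand 3185 bases from Y110A2AL.1, had 437 antisense reads in the RNAi library and 14 in wild type, a ratio of 43.4 (25.6 to 80.0). B0001.3, on the same strand 100 bases from B0001.5, had 154 in the RNAi library and 11 in wild type, a ratio of 19.4 (10.6 to 39.8). 

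The ratio of Y110A2AL.10 was like that of its neighbour Y110A2AL.1, 42.4, while that of B0001.3 was below that of B0001.5, 71.4, and the intervals did not overlap. C46G7.5, on the opposite strand 5335 bases from unc-44, had 52 antisense reads in the RNAi library and 1 in wild type, a ratio of 72.2 (12.4 to 2908). At 9.39 RPM in the RNAi library it was under the minimum of 10 RPM. Other measured neighbours were Y71G12B.13 (39 antisense reads in the RNAi library, 12 in wild type), lin-65 (37 and 4) and atg-5 (10 and 3) beside tln-1.

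Further neighbours of B0001.5 were B0001.8 (14 antisense reads in the RNAi library, 2 in wild type), B0001.4 (10 and 1) and B0001.2 (12 and 2). The protein-coding neighbours of Y54G2A.40, ckk-1 and F56H1.3 had at most 6 antisense reads in either library. Of 38 genes that overlap the 7, most were noncoding RNA loci inside unc-44 that share no exon base with it. Over all 45510 genes, 11867 outside structural RNA had antisense reads in the RNAi library and 7248 in wild type. Among the 38, 35 had no antisense read, 2 were measured and none met the size rule. The 2 measured ones share no exon base with the gene around them: Y71G12B.36, a noncoding RNA inside tln-1, had 19 antisense reads in the RNAi library and 4 in wild type, and C05H8.3, a small nucleolar RNA inside ckk-1, had 17 and 2. The mppa-1 gene, which shares 52 exon bases with tln-1 on the opposite strand, had 4 antisense reads in the RNAi library and 1 in wild type. The clec-85 gene, which shares 397 exon bases with Y54G2A.40 on the same strand, had 0 in each library.

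**Figure D5:**
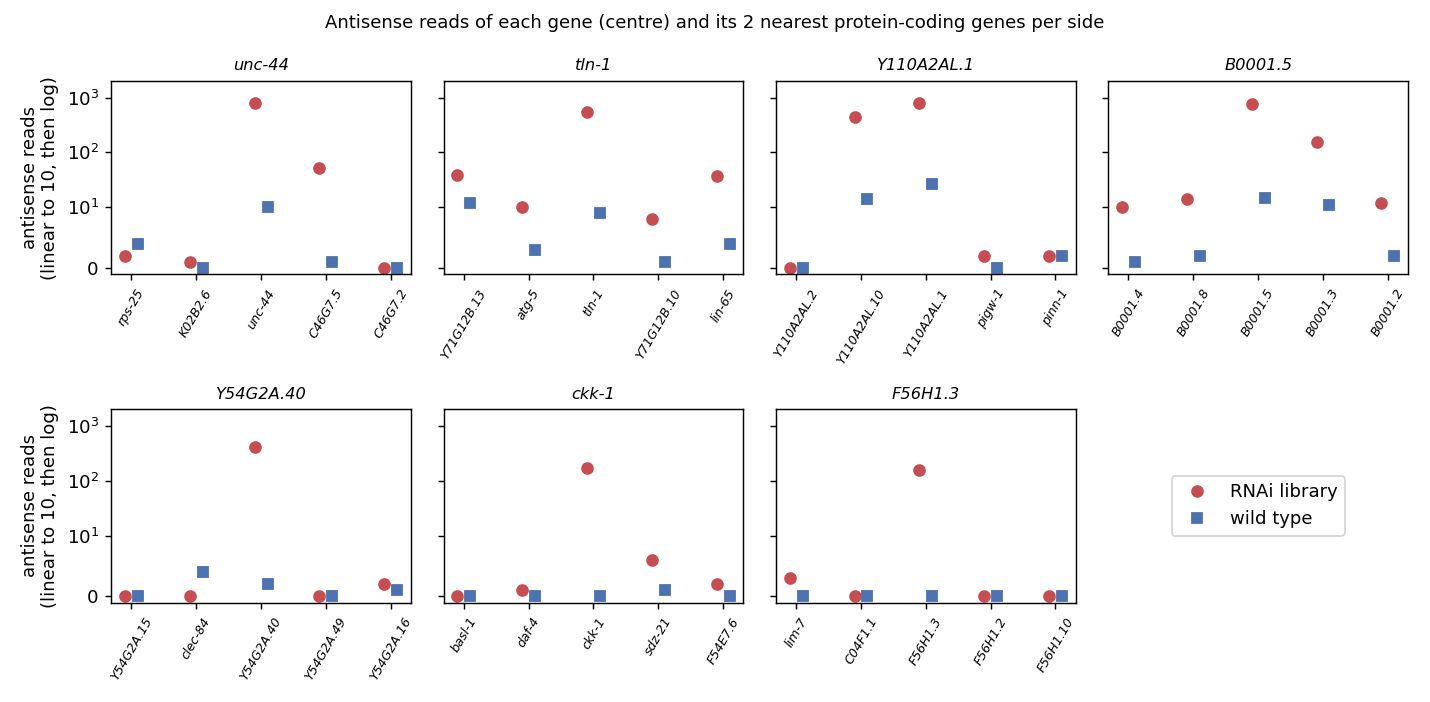
Antisense reads (linear to 10, then log axis) of each of the 7 genes, in the centre of its panel, and of its 2 nearest protein-coding genes per side, with the RNAi library as red circles left of wild type as blue squares. Y110A2AL.10 with 437 reads and B0001.3 with 154 reads stand near their neighbours in the RNAi library, while the flanks of Y54G2A.40, ckk-1 and F56H1.3 had at most 6 reads.

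Genes with known ties to the 3 named genes were taken from lists of related genes. Of 7 ankyrin and axonal partners of unc-44, 6 were measured and 2 met the size rule, unc-119 and spc-1, beside 18.6% of all measured genes. With TMM and median-of-ratios size factors unc-119 alone met it, and the log2 ratio of spc-1 was -0.09 and -0.16. With microRNA sense reads spc-1 did not meet it either. The unc-119 gene, which encodes a lipid-binding chaperone needed in neurons, had 98201 antisense reads in the RNAi library and 224 in wild type, a ratio of 609 (534 to 698). Whether those reads came from its own locus or from another copy of its sequence was not tested. The ratio of spc-1, the alpha spectrin, was 11.7 (5.87 to 26.6), and its antisense counts were 76 in the RNAi library and 9 in wild type. The median of the measured partners was 14.7-fold, beside 11.9-fold over all measured genes, and unc-44, at 110, lay above 5 of the 6.

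None of 13 integrin adhesion genes met the size rule, and 3 were measured. Their median was 6.95-fold, below that of all measured genes, while the ratio of tln-1 was 85.2. The highest of them, unc-112, the kindlin that helps activate integrins, had 28 antisense reads in the RNAi library and 1 in wild type.

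Of 7 calcium and calmodulin signalling genes, 5 were measured and 2 met the size rule, with a median of 27.2-fold, beside 18.6% of all measured genes and their median of 11.9-fold. Neither met the rule with TMM, where the log2 ratio was 1.75 for tax-6 and 1.20 for cnb-1, or with median-of-ratios size factors. Both encode subunits of calcineurin, the calcium-dependent phosphatase. The catalytic subunit tax-6 had 444 antisense reads in the RNAi library and 15 in wild type, a ratio of 41.1 (24.7 to 74.1), and the regulatory subunit cnb-1 had 166 and 8, a ratio of 28.8 (14.3 to 67.9). The highest log2 ratio of the list was that of cmd-1, 5.90, with 21 antisense reads in the RNAi library and 0 in wild type. At 3.79 RPM in the RNAi library cmd-1 was under the minimum of 10 RPM. Set at 3 reads, its wild-type count of 0 gave the measured genes of the list a median log2 ratio of 3.28. That was below the 3.47 of all measured genes treated alike, so the higher median of 27.2-fold depended on how this count was treated. The ratios of unc-43 and dapk-1, 4.17 and 3.10, were below 11.9, while those of tax-6 and cnb-1 were above it. The substrate kinase of CKK-1, cmk-1, had 2 antisense reads in the RNAi library and 0 in wild type. 

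Tissue markers were set beside these lists, and their counts meeting the size rule are read against 18.6% of all measured genes. Of 6 neuron markers 3 were measured and 2 met the size rule, unc-119 and unc-10, and their summed antisense level was 17827 RPM in the RNAi library and 32.9 RPM in wild type, nearly all of it unc-119. Of 5 muscle markers 3 were measured and none met the rule, with sums of 6.68 RPM in the RNAi library and 1.17 RPM in wild type. The 4 intestine markers had 2 antisense reads in the RNAi library and 0 in wild type, and 3 of them, ges-1, elt-2 and vit-6, were at 0 in both. For hypodermis 1 of 4 met the rule, lin-26, and for the germline none of 4 did. The 4 germline markers were all measured, with a median of 17.4-fold and 118 antisense reads in the RNAi library and 9 in wild type. With the wild-type count of 0 of gld-1 set at 3 reads, their median log2 ratio was 3.60, beside 3.47 over all measured genes. The median of the measured markers was 27.3-fold for neuron, 4.72-fold for muscle and 4.83-fold for hypodermis. With TMM and median-of-ratios size factors unc-119 alone of these markers met the rule. The part of tissue content in the excess of the 7 genes was not tested.

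The 5 genes that follow had antisense levels most like the 7 in both libraries, by the distance to their median point of 99.8 RPM in the RNAi library and 1.23 RPM in wild type on the log2 scale. The nearest was hum-2, an unconventional myosin heavy chain, with 483 antisense reads in the RNAi library and 9 in wild type, a ratio of 74.6 at a distance of 0.192. The ratio was 61.6 for let-765, 116 for pxd-1, 62.5 for K07E3.2 and 56.7 for rei-2, at distances of 0.328, 0.349, 0.446 and 0.459. These 5 lie on chromosomes III, V and X, and none shares a chromosome with the 7 genes other than ckk-1, on III. The likeness is a description over 2 libraries.

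Other genes with large antisense counts stood beside the 7 in the RNAi library. The gene aimed at by the RNAi, dpy-13, had 115 antisense reads in the RNAi library and 1 in wild type, a ratio of 160 (28.1 to 6365). The tagged gene nrde-3 had 10360 in the RNAi library and 319 in wild type, a ratio of 45.1. The collagen gene sqt-3 had 3994 in the RNAi library and 0 in wild type.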

How the data were processed

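The deposited counts were raw reads per transcript, sense and antisense, per the file headers and labels. The authors used Bowtie2 with default settings against WS243 transcripts, per the series' design text, and no version is given in the sources used here. At those settings a read matching several places equally well is given to 1 of them, so isoform counts are uncertain.

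Counts of isoforms were added per gene and divided by all counted reads of the library. Members were matched by gene name or sequence name. Ratios carry an exact Clopper-Pearson 95% interval of the split of reads between the libraries. Shares carry Wilson intervals, and log2 ratios had 0.5 added to each count. Intervals cover counting error only, since reads are not independent molecules. Scripts ran in Python 3.11.15 with pandas 2.3.3, scipy 1.17.1 and matplotlib 3.10.9, and TMM factors came from edgeR 4.0.16 in R 4.3.3. The calculation was checked on simulated counts.

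Named genes were all 7 members, the 5 nearest to their median point, list members that met the size rule with the highest of each list, and neighbours with 10 or more antisense reads. The protein-coding neighbours were selected after the data were seen, as were the genes in the paragraph on other large counts, cmk-1, mppa-1, clec-85 and the markers at 0. Members, lists and rules were chosen with earlier results of these data known. Sequences shared with dpy-13 were not analysed here.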

Additional observations from a re-analysis of the deposited data

How the results depend on the processing

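All 7 genes kept a log2 antisense ratio above 0 under every scaling and summing tried. The median log2 ratio was 3.14 with TMM, 3.07 with median-of-ratios size factors, 4.93 with microRNA sense reads and 5.75 with 5 added to each count. TMM and median-of-ratios lowered every log2 ratio by construction, by 3.57 and 3.64, and the median of all measured genes became 0.01 and -0.066. The excess of the 7 over that median could not move under a scaling, since a scaling shifts all genes alike. It was 3.12 with the isoform with most antisense reads, 3.43 with 5 added to each count and 2.90 with a minimum of 100 reads. With no minimum it was 6.24, where the median gene had no antisense read in either library. Measured genes that met the size rule higher in the RNAi library fell to 52 with TMM, 45 with median-of-ratios, 668 with microRNA reads and 607 with a minimum of 100 reads, and members to 6 under the first 2. Those lower in the RNAi library numbered 151, and between 141 and 174 under the alternatives. List genes meeting it fell to 1 with TMM and 1 with median-of-ratios. The summed sense ratio was 0.314 with TMM, 0.298 with median-of-ratios, 1.08 with microRNA reads, 4.84 without structural RNA and 4.16 with the top isoform. The sense log2 ratio turned to -1.63 and -1.71 for unc-44, -1.74 and -1.81 for tln-1, and -1.81 and -1.88 for B0001.5 with TMM and median-of-ratios, and to -0.025 for B0001.5 with microRNA reads. Depth limits the wild-type side: 5 of 7 genes had 2 to 26 antisense reads there and 2 had 0. No paired analysis was possible because each group held 1 library.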
